A study of Homo sapiens with 4 samples.

Results

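The genes described here are 10 members of the insulin-like growth factor (IGF) axis, out of 62069 genes counted: the ligand IGF1, the receptors IGF1R, INSR and IGF2R, the adaptors IRS1 and IRS2, and the binding proteins IGFBP2, IGFBP3, IGFBP4 and IGFBP7. They were found by symbol in the deposited table and joined by Ensembl identifier to the fragment counts, and all 10 matched and passed the filter on low counts. They were chosen by earlier results of the same contrast, above all the higher IGFBP4 in the NSD2 shRNA libraries, so their differences are given as a description, with standard errors and intervals but no p-value. RNA was sequenced from KMS11, an established multiple myeloma line with the t(4;14) translocation, which places NSD2, a histone H3 lysine 36 methyltransferase, under immunoglobulin control. One group of 2 libraries came from cells given lentivirus with an shRNA against NSD2 (named shM2), and the other group of 2 came from cells given a control shRNA. All cells had polybrene at 10 µg/mL with the virus and were taken at 96 h, 72 h after the medium was changed. Each library was made from 1 µg of RNA. Nothing in the labels states that the libraries of a group were separate cultures, so the p-values cover the spread between these 4 samples alone, possibly a technical spread, and both groups are limited to 1 cell line.

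IGF1 and insulin act through the receptor tyrosine kinases IGF1R and INSR, which phosphorylate the adaptors IRS1 and IRS2 and so recruit phosphoinositide 3-kinase. IGF2R, also called the cation-independent mannose 6-phosphate receptor, carries lysosomal enzymes and clears IGF2 without kinase signalling. The secreted IGF binding proteins hold IGFs away from their receptors until proteases release them, and in the bone marrow IGF1 is known as a growth and survival factor of myeloma cells.

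Total counts were between 48334736 and 55059566 fragments in the NSD2 shRNA libraries and between 46728940 and 50417758 in the control libraries. NSD2 itself stood at 919 and 1156 CPM (counts per 1e6 fragments of a library, on TMM-scaled totals) in the NSD2 shRNA libraries, against 1121 and 1471 CPM in the control libraries. The groups overlapped, and the log2 fold change of -0.32 (SE 0.15) did not pass edgeR's quasi-likelihood test (Benjamini-Hochberg adjusted p = 0.244), so the group is named below only by its shRNA label. Across all 17172 genes tested, 1018 (5.93%) passed the threshold of an adjusted p below 0.05, of which 299 (1.74%) were higher and 719 (4.19%) lower. With terms for GC content and length the split was 660 higher and 620 lower. Without control library 1 the count of calls was 2024. The plasma cell marker SDC1 stood at 678 and 667 CPM in the NSD2 shRNA libraries and at 653 and 633 CPM in the control libraries. Of the 9 plasma cell and KMS11 markers none was higher past the threshold and 2 were lower past it, SLAMF7 and CD38. SLAMF7 averaged 119 CPM with the NSD2 shRNA and 254 CPM with the control shRNA (edgeR adjusted p = 0.000952). CD38 averaged 0.163 CPM with the NSD2 shRNA and 1.12 CPM with the control shRNA (adjusted p = 0.0284). IRF4 averaged 497 CPM with the NSD2 shRNA and 648 CPM with the control shRNA and did not pass (adjusted p = 0.081). XBP1 averaged 1144 CPM with the NSD2 shRNA and 960 CPM with the control shRNA and did not pass (adjusted p = 0.209). TNFRSF17 averaged 365 CPM with the NSD2 shRNA and 338 CPM with the control shRNA and did not pass (adjusted p = 0.697). SDC1 with a higher mean, and PRDM1, FGFR3 and NSD2 with lower means, did not pass either. Markers of stromal fibroblasts summed to 0.972 to 0.977 CPM in the NSD2 shRNA libraries, against 1.01 to 1.34 CPM in the control libraries, with LUM at 0 in all 4. Epithelial markers summed to 32.9 to 34.4 CPM in the NSD2 shRNA libraries, against 53.9 to 66.4 CPM in the control libraries, and EPCAM, CDH1 and KRT18 among them were lower by the same test, while CDH16 was at 0 in all 4. T and NK cell markers summed to 2.96 to 3.11 CPM in the NSD2 shRNA libraries, against 6.24 to 6.43 CPM in the control libraries, with CD3D at 0 in all 4. Most of that sum came from NCAM1 and CD3E. NCAM1 averaged 0.339 CPM with the NSD2 shRNA and 2.14 CPM with the control shRNA (edgeR adjusted p = 0.000978). CD3E averaged 2.58 CPM with the NSD2 shRNA and 3.99 CPM with the control shRNA and did not pass (adjusted p = 0.0838). The part of these differences in the results below was not tested.

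IGFBP4 was the member that differed most. Its level was 2.64-fold higher in the NSD2 shRNA libraries than in the control libraries. The receptors and adaptors all had lower means in the NSD2 shRNA libraries, by smaller amounts, and IRS2 had the most negative log2 fold change of these, at -0.51. IGF1, the ligand, also had a lower mean. IGFBP2 and IGFBP7 had few counted fragments in either group, and exons shared with other genes limit the count of IGFBP7. Of the 10 members, 2 were past the threshold over all genes, IGFBP4 (higher) and IRS2 (lower), beside 5.93% of all genes tested. The groups did not overlap for 6 members, 2 higher and 4 lower, beside 53.2% of all genes tested. The median log2 fold change of the 10 members was -0.21, beside a median of 0.00 over all genes. The members were selected on this contrast, so nothing is read from these counts. In bulk RNA, fewer cells of a type and less RNA per cell cannot be told apart.

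**Figure D1:**
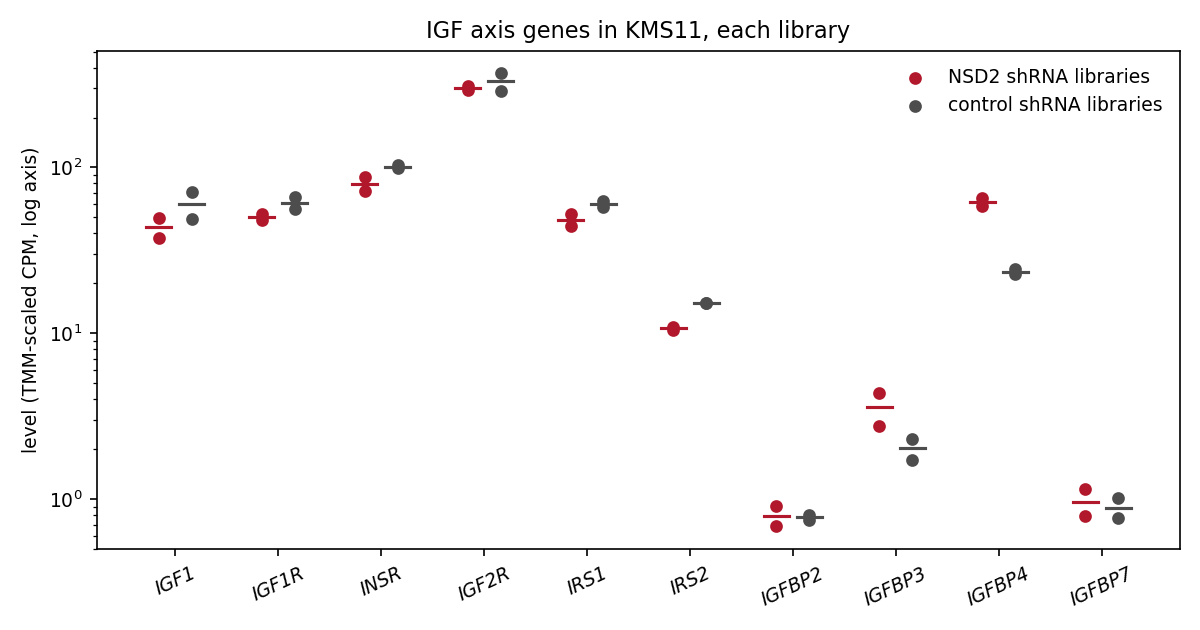
Level of each member in CPM (log axis) in the 2 NSD2 shRNA and the 2 control libraries, 1 point per library, with a bar at each group mean. IGFBP4 lies at 58.9 and 65.2 CPM in the NSD2 shRNA libraries and at 22.7 and 24.3 CPM in the control libraries, while IGFBP2 and IGFBP7 lie near 1 CPM in both groups.

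The promoter sequences of the members past the threshold, IGFBP4 and IRS2, and of INSR as a receptor are shown because IGFBP4 was the member whose window held TATAAA. Each run is the 250 bases before the transcription start in RefSeq (GRCh38.p14), 5′ to 3′ on the gene's strand, at chr17:40443200-40443449 (+) for IGFBP4, chr13:109786584-109786833 (-) for IRS2 and chr19:7294415-7294664 (-) for INSR. Capitals mark GC boxes (GGGCGG, or CCGCCC on the other strand) and the TATA box (TATAAA, searched on both strands).
IGFBP4: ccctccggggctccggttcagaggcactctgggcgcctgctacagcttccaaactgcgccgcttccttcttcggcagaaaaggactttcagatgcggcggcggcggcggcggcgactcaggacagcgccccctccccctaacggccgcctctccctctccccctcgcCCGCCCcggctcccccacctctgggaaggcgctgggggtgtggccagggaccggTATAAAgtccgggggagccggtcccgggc
IRS2: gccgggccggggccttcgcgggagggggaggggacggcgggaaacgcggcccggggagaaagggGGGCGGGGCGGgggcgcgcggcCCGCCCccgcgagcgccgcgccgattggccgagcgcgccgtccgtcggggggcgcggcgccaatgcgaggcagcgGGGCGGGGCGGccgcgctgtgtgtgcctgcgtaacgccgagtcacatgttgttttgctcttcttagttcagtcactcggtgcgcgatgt
INSR: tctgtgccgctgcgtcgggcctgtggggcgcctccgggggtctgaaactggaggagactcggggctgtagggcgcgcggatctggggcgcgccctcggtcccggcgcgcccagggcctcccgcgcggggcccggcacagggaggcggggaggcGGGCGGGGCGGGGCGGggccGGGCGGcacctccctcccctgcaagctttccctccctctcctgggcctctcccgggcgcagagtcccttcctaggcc
The IGFBP4 run holds 1 TATAAA, 29 to 24 bases before the start, and 1 GC box, 83 to 78 bases before it. The IRS2 run holds 5 GC boxes and the INSR run 4, some of which share letters with the next, and neither holds TATAAA. RefSeq windows were found for 9 of the 10 members, 12 windows in all, IGF1 and IGFBP2 having several starts and IGFBP7 none in the table. A GC box stood in 9 of the 12 windows and in 42.6% of 35116 promoters of the same length. TATAAA stood in 1 of the 12, that of IGFBP4, and in 10.7% of all promoters. Only these letters were searched, so other TATA-like runs, such as tatata in the IGFBP3 window, are not counted. The 5 windows of the receptors and adaptors had a GC content of 76.4% to 81.2%, against a median of 58.0% over all promoters, while that of IGFBP4 had 71.6% and those of IGF1 39.6% and 44.0%. A match is a description of the letters in this window, not a binding site.

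IGF1, the ligand (ENSG00000017427, GRCh37 chromosome 12, 102789645 to 102874423, minus strand), had 37.3 and 49.7 CPM in the NSD2 shRNA libraries, against 48.9 and 71.1 CPM in the control libraries. The higher NSD2 shRNA library lay just above the lower control library, so the groups overlapped. The means were 43.5 ± 8.77 CPM with the NSD2 shRNA and 60.0 ± 15.7 CPM with the control shRNA (SD, n = 2 each), a log2 fold change of -0.46 (SE 0.18, 95% interval -0.86 to -0.06). With 1 library left out in turn that value lay between -0.70 and -0.17, so its size rested on single libraries. Transcripts of the other ligands, INS and IGF2, were at 0 fragments in all 4 libraries. IGF2 shares 1706 exonic bases with the readthrough gene INS-IGF2, also at 0, so a count of 0 for it says little about the shared exons.

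Of the receptors, IGF1R (chromosome 15, 99192200 to 99507759, plus strand) had 52.1 and 48.1 CPM in the NSD2 shRNA libraries, against 56.3 and 65.9 CPM in the control libraries. Both NSD2 shRNA libraries lay below both control libraries. Its log2 fold change stood at -0.28, with an SE of 0.11 and a 95% interval of -0.52 to -0.05. INSR, the insulin receptor, which also forms hybrids with IGF1R (chromosome 19, 7112266 to 7294045, minus strand), had 87.5 and 71.7 CPM in the NSD2 shRNA libraries and 102.9 and 99.6 CPM in the control libraries. Here too the groups did not overlap, and the spread was wider among the NSD2 shRNA libraries (SD 11.2 CPM, against 2.39 CPM in the control libraries). Its log2 fold change was -0.35 (SE 0.11, 95% interval -0.60 to -0.10). IGF2R, the mannose 6-phosphate receptor (chromosome 6, 160390131 to 160534539, plus strand), had 311 and 292 CPM in the NSD2 shRNA libraries, against 291 and 369 CPM in the control libraries. The lower control library lay below both NSD2 shRNA libraries, the interval of the log2 fold change ran from -0.40 to 0.14 around -0.13, and the sign turned to 0.04 when control library 2 was left out.

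Of the summed levels per kb of exonic length of the 3 receptor kinases, INSR made up 59.7% and 56.9% in the NSD2 shRNA libraries, against 57.3% and 53.4% in the control libraries. IGF1R made up 27.5% and 29.5% in the NSD2 shRNA libraries, against 24.2% and 27.3% in the control libraries. INSRR, the insulin receptor-related receptor, which responds to alkaline pH rather than to insulin or IGFs, made up 12.9% and 13.6% in the NSD2 shRNA libraries, against 18.4% and 19.3% in the control libraries. The groups overlapped for the share of INSR, and did not for IGF1R, whose share was higher with the NSD2 shRNA, or for INSRR, whose share was lower. IGF2R had 8.09 and 8.23 times the level per kb of IGF1R in the NSD2 shRNA libraries, and 7.02 and 7.60 times in the control libraries.

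IRS1, an adaptor that docks phosphoinositide 3-kinase to both receptor kinases (chromosome 2, 227599757 to 227664475, minus strand), had 52.0 and 44.4 CPM in the NSD2 shRNA libraries, against 57.9 and 62.8 CPM in the control libraries. IRS2, its close relative (chromosome 13, 110406184 to 110438915, minus strand), had 10.9 and 10.5 CPM in the NSD2 shRNA libraries, against 15.3 and 15.2 CPM in the control libraries. For both adaptors each NSD2 shRNA library lay below each control library, and for IRS2 the libraries of a group nearly coincided. The IRS2 means were 10.7 ± 0.306 CPM with the NSD2 shRNA and 15.3 ± 0.0456 CPM with the control shRNA (SD, n = 2 each), a log2 fold change of -0.51 (SE 0.12, 95% interval -0.78 to -0.25). The IRS1 log2 fold change was -0.32 (SE 0.11, 95% interval -0.56 to -0.09). IRS2 was no longer past the threshold without either NSD2 shRNA library or with terms for GC content and length, though its log2 fold change stayed between -0.54 and -0.49 with 1 library left out. IRS1 had 5.36 and 4.77 times the level per kb of IRS2 in the NSD2 shRNA libraries, and 4.26 and 4.64 times in the control libraries, ranges that do not overlap but lie close together.

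Most of the receptor and adaptor transcripts are long. IGF1R, INSR, IGF2R, IRS2 and IGF1 fall among the 3435 tested genes with an exonic length of 6909 bp or more. Over these 3435 genes the median log2 fold change was -0.07, and 8.03% were called lower and 1.25% higher. Over 5 equal bins of GC content the median ran from -0.03 in the lowest to 0.05 in the highest. With terms for GC content and length together in the fit, the log2 fold change was -0.03 for IGF1R, -0.15 for INSR, -0.20 for IRS1 and -0.40 for IRS2, and that of IGF2R turned to 0.07. The median of the 10 members then was 0.02, while the median over all genes rose by 0.07 from the main fit. IGFBP4 kept 1.36 in that fit and IGFBP3 had 0.91.

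**Figure D2:**
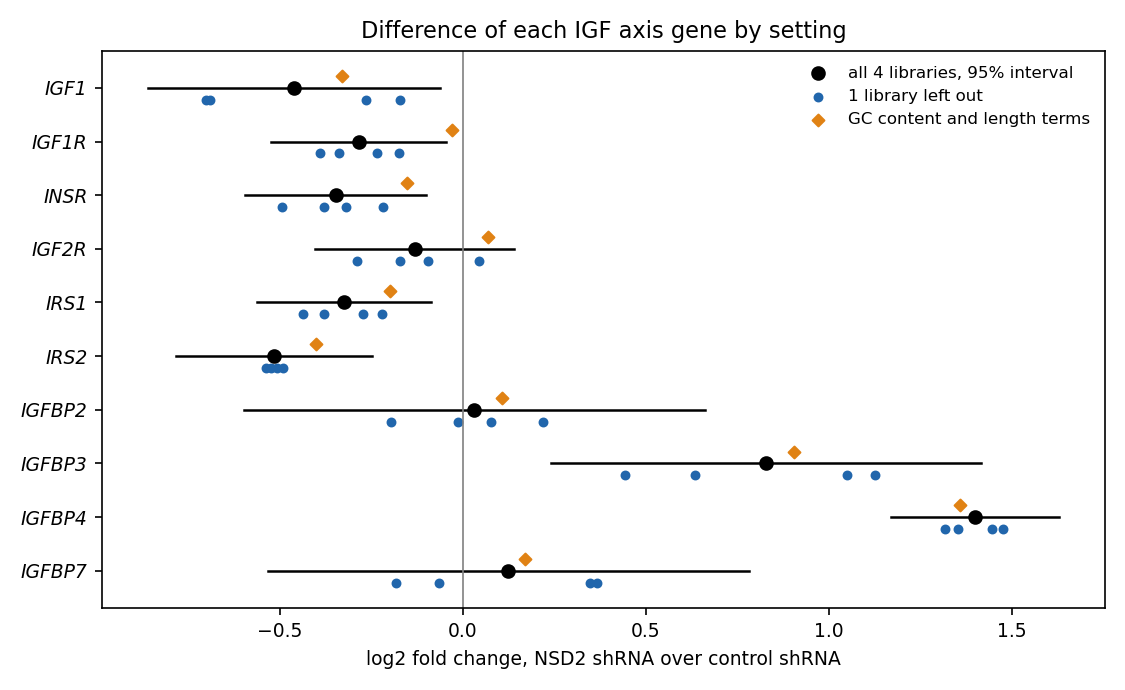
Log2 fold change of each member, NSD2 shRNA over control shRNA, with its 95% interval (black), the values with 1 of the 4 libraries left out (blue) and the value with terms for GC content and length (orange). IGFBP4 lies between 1.32 and 1.48 in every such fit, while IGF2R, IGFBP2 and IGFBP7 have points on both sides of 0.

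IGFBP4, a secreted binding protein that holds IGFs in an inactive complex until the protease PAPPA cleaves it (ENSG00000141753, chromosome 17, 38599702 to 38613983, plus strand, 4 exons over 2211 bp), had 58.9 and 65.2 CPM in the NSD2 shRNA libraries, against 22.7 and 24.3 CPM in the control libraries. These rest on 2847 and 3540 fragments in the NSD2 shRNA libraries and on 1146 and 1148 in the control libraries. The lowest NSD2 shRNA library lay far above the highest control library. Means were 62.1 ± 4.49 CPM with the NSD2 shRNA and 23.5 ± 1.19 CPM with the control shRNA (SD, n = 2 each). This is a log2 fold change of 1.40 (SE 0.10, 95% interval 1.17 to 1.63), and its rank from the highest was 66 of 17172 genes. Under the 15 alternative settings the value lay between 1.32 and 1.48. The authors' deposited table gives IGFBP4 a log2 fold change of 1.41 with a standard error of 0.199. The base mean of that table is 1070 for IGFBP4, while the 4 count files average 2170 fragments, so the libraries behind that model are not stated and may not be these alone.

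IGFBP3, the main carrier of IGFs in blood (chromosome 7, 45951951 to 45961473, minus strand), was also higher but rested on few fragments. It had 2.75 and 4.39 CPM in the NSD2 shRNA libraries, from 133 and 238 fragments, against 1.72 and 2.31 CPM in the control libraries, from 87 and 109 fragments. The groups did not overlap, and the NSD2 shRNA libraries lay further apart than the control libraries. Its log2 fold change stood at 0.83, with an SE of 0.26 and a 95% interval of 0.24 to 1.42, and lay between 0.44 and 1.13 with 1 library left out. IGFBP2, another carrier of IGFs (chromosome 2, 217497551 to 217529159, plus strand), had 0.682 and 0.903 CPM in the NSD2 shRNA libraries, against 0.752 and 0.806 CPM in the control libraries. These are 33 to 49 fragments a library, and the interval of the log2 fold change, -0.60 to 0.66, holds differences of either sign, so a difference within it was not detectable at this depth. IGFBP7, which binds IGFs weakly and insulin as well (chromosome 4, 57896939 to 57976551, minus strand), had 38 and 62 fragments in the NSD2 shRNA libraries and 51 and 36 in the control libraries, with overlapping groups and an interval of -0.53 to 0.78. IGFBP7 shares 270 exonic bases with POLR2B on the opposite strand, which had 16413 to 21993 fragments a library, and counting ignored strand, so the origin of these few fragments is uncertain. It also shares 1306 of its 1815 exonic bases with ENSG00000250610 on the same strand, at 0 fragments in all 4 libraries. The low count of IGFBP7 therefore says little about the shared exons, and its level may be higher than counted.

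The make-up of the binding proteins differed with IGFBP4. The members were chosen above all for the higher IGFBP4, so the sums, shares and ratios here largely restate that difference. The levels of IGFBP1 to IGFBP7 summed to 40.7 and 46.0 CPM per kb in the NSD2 shRNA libraries, against 23.2 and 23.7 CPM per kb in the control libraries. The sum takes IGFBP7 as counted, with the limit of its shared exons. IGFBP4 made up 65.3% and 64.2% of that sum in the NSD2 shRNA libraries, against 44.1% and 46.5% in the control libraries. IGFBP6, which prefers IGF2 and is no member, made up most of the rest, with 12.9 and 14.7 CPM per kb in the NSD2 shRNA libraries, against 11.9 and 11.5 CPM per kb in the control libraries. Its log2 fold change of 0.24 did not pass the test (edgeR, adjusted p = 0.279). IGFBP1 was at 0 fragments in all 4 libraries and IGFBP5 at 6 to 8. The level of IGFBP4 per kb was 5.77 and 4.80 times that of IGF1 in the NSD2 shRNA libraries, against 1.70 and 1.25 times in the control libraries.

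**Figure D3:**
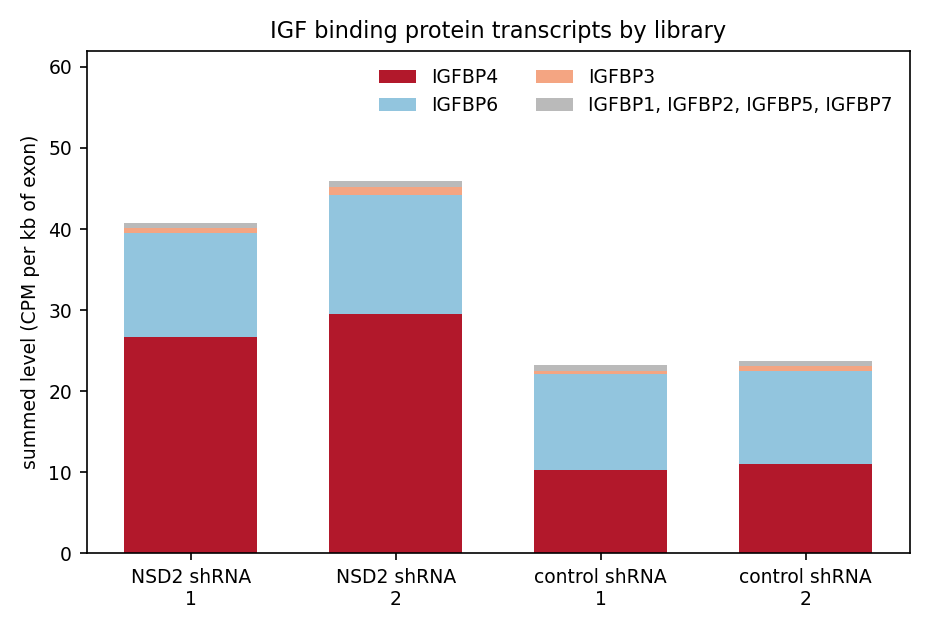
Level of each IGF binding protein in CPM per kb of exonic length, stacked for each of the 4 libraries. The sum is 40.7 and 46.0 in the NSD2 shRNA libraries and 23.2 and 23.7 in the control libraries, and IGFBP4 is the segment that differs most.

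Per kb of exonic length IGF2R had the highest mean level and IGFBP2 the lowest in both groups. In the NSD2 shRNA libraries IGF2R (30.3 CPM per kb) and IGFBP4 (28.1 CPM per kb) led with overlapping ranges. In the control libraries IGF2R (33.1 CPM per kb) stood above IGFBP4 (10.6 CPM per kb) with no overlap. INSR and IRS1 followed with overlapping ranges in both groups, at 7.62 and 7.74 CPM per kb in the NSD2 shRNA libraries and at 9.69 CPM per kb each in the control libraries. IGF1, IGF1R and IRS2 came next, each clear of its neighbours in both groups. Their levels were 5.38, 3.71 and 1.53 CPM per kb in the NSD2 shRNA libraries, against 7.42, 4.52 and 2.18 CPM per kb in the control libraries. IGFBP3 and IGFBP7, the latter as counted, overlapped in both groups. IGFBP2 was lowest at 0.166 CPM per kb in the NSD2 shRNA libraries and 0.163 CPM per kb in the control libraries. Among all tested genes the level of IGFBP4 per kb stood at percentile 89.6 in the NSD2 shRNA libraries and at percentile 74.5 in the control libraries.

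EMID1, SRPK3, ITGA8, PRTN3 and ITGB2 were the 5 genes nearest to IGFBP4 in their profile over the 4 libraries, among protein-coding genes with a mean of 5 CPM or more. Likeness was the root mean square distance between log2 levels centred on each gene's own mean, and it ran from 0.0409 for EMID1 to 0.131 for ITGB2. With 4 libraries in 2 groups, this measure finds genes with about the same group difference. EMID1, an extracellular matrix protein, had 8.69 and 10.0 CPM in the NSD2 shRNA libraries, against 3.36 and 3.58 CPM in the control libraries. ITGA8, an integrin subunit, had 45.1 and 47.8 CPM in the NSD2 shRNA libraries, against 18.0 and 20.8 CPM in the control libraries. PRTN3 encodes a neutrophil serine protease and SRPK3 a muscle kinase, and SRPK3 and ITGB2 share exonic bases with PLXNB3 and ITGB2-AS1.

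The 3 tested genes on each side of IGFBP4 on chromosome 17 were looked up after their values were seen, and 1 of them passed the test. TOP2A, the DNA topoisomerase 25.5 kb to one side, had a log2 fold change of -0.10 (edgeR, adjusted p = 0.588). TNS4, a focal adhesion protein 18.1 kb to the other side, had 0.12 (adjusted p = 0.777). The lincRNA ENSG00000266088 (38673278 to 38683254), 59.3 kb from IGFBP4, had 57.3 and 63.0 CPM in the NSD2 shRNA libraries, against 29.5 and 33.2 CPM in the control libraries, and rose by 0.94 on the log2 scale (SE 0.10, edgeR adjusted p = 0.00128). SMARCE1, a subunit of the BAF chromatin remodelling complex 167 kb away, had 0.11 (adjusted p = 0.539). The remaining neighbours rested on few fragments and did not pass. GJD3 (27 to 48 fragments a library) had 0.51 (edgeR, adjusted p = 0.354). The RNA gene ENSG00000222881 (20 to 35 fragments a library) had 0.31 (adjusted p = 0.651).

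Of 161 other genes of the pathway, 160 were found by symbol and 128 passed the filter. Of these 128, 4 were higher and 15 lower in the NSD2 shRNA libraries than in the control libraries by edgeR's quasi-likelihood test, which is set beside 1.74% and 4.19% of all genes tested. Their median log2 fold change was -0.11. The count of higher genes depended on single libraries: none was called without NSD2 shRNA library 2, and 7 were called without NSD2 shRNA library 1 and 7 without control library 1. The lower calls numbered between 14 and 21 with 1 library left out.

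Among receptors and ligands outside the members, INSRR fell to 9.22 and 8.36 CPM in the NSD2 shRNA libraries, against 16.2 and 17.6 CPM in the control libraries (log2 fold change -0.94, SE 0.13, adjusted p = 0.00335). The groups stood well apart. Counting ignored strand, so the origin of a part of the INSRR fragments is uncertain. Of the 7 tested proteases and inhibitors that act on binding proteins, 2 fell. ADAM9, a membrane metalloprotease, had 98.0 ± 2.96 CPM with the NSD2 shRNA and 141 ± 2.66 CPM with the control shRNA (SD, n = 2 each; log2 fold change -0.52, adjusted p = 0.0101). PAPPA2, which cleaves IGFBP3 and IGFBP5, had only 19 and 21 fragments in the NSD2 shRNA libraries, against 60 and 44 in the control libraries (log2 fold change -1.44, adjusted p = 0.0222). It lost its call with DESeq2 and was removed by the stricter filter on low counts. PAPPA, the protease of IGFBP4, had 10 and 9 fragments in the NSD2 shRNA libraries and 11 and 22 in the control libraries, and did not pass (adjusted p = 0.333). STC2, an inhibitor of PAPPA, had 34.0 and 24.8 CPM in the NSD2 shRNA libraries and 44.8 and 38.1 CPM in the control libraries, and did not pass (log2 fold change -0.50, adjusted p = 0.0872). Of the 10 tested genes of receptor maturation and the mannose 6-phosphate pathway, NAGPA, the enzyme that uncovers the mannose 6-phosphate tag read by IGF2R, rose to 22.3 ± 2.46 CPM with the NSD2 shRNA, against 15.6 ± 1.10 CPM with the control shRNA (log2 fold change 0.51, adjusted p = 0.0404). It shares 301 exonic bases with ALG1 on the opposite strand and lost its call without NSD2 shRNA library 2, with upper-quartile and library-size scaling, and with the stricter filter.

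The adaptors and regulators around IRS1 and IRS2 held most of the lower calls: 9 of 35 tested fell and 1 rose, with a median log2 fold change of -0.19 over the list, and 27 of the 35 had a negative value, beside 4.19% called lower and 8631 of 17172 negative over all genes tested. SHC2, a phosphotyrosine adaptor of the Shc family, had 0.724 and 0.829 CPM in the NSD2 shRNA libraries, against 4.43 and 6.999 CPM in the control libraries (7.31-fold lower, log2 fold change -2.87, SE 0.27, adjusted p = 0.00063). DOK2, a docking protein of haematopoietic cells, had 1.32 and 1.36 CPM in the NSD2 shRNA libraries, against 5.28 and 5.87 CPM in the control libraries (log2 fold change -2.05, adjusted p = 0.00063). GRB10, an inhibitor that binds the activated INSR and IGF1R, had 0.910 and 1.29 CPM in the NSD2 shRNA libraries, against 4.23 and 4.62 CPM in the control libraries (log2 fold change -2.00, SE 0.23, adjusted p = 0.00143). For these 3 genes the highest NSD2 shRNA library lay well below the lowest control library, and all 3 were past the threshold under the 15 alternative settings. GRB14 and GRB7, the relatives of GRB10, fell by 1.37 and 0.68 on the log2 scale (adjusted p = 0.0417 and 0.0258), and both lost their calls without NSD2 shRNA library 1, GRB14 also without control library 1 and with DESeq2, and the stricter filter removed GRB14. NEDD4, a ubiquitin ligase that GRB10 brings to IGF1R, had 4.15 ± 1.06 CPM with the NSD2 shRNA and 9.11 ± 1.25 CPM with the control shRNA (SD, n = 2 each; log2 fold change -1.14, adjusted p = 0.0104). The docking protein GAB2 (-1.26, adjusted p = 0.0203), the INSR inhibitor ENPP1 (-0.97, adjusted p = 0.0190) and the docking protein DOK1 (-0.61, adjusted p = 0.0478) complete the lower calls, as log2 fold changes, and DOK1, which shares 216 exonic bases with LOXL3, lost its call without either NSD2 shRNA library and with DESeq2. These last 6 were named after their values were seen. NCK2, an SH2 and SH3 adaptor, rose to 56.3 ± 5.21 CPM with the NSD2 shRNA, against 39.3 ± 1.41 CPM with the control shRNA (log2 fold change 0.52, adjusted p = 0.0169), and lost its call without NSD2 shRNA library 2. The number of lower adaptors was 6 without NSD2 shRNA library 1. The widely expressed adaptors SHC1 and GRB2 did not pass: SHC1 had a log2 fold change of -0.02 (adjusted p = 0.920) and GRB2 one of 0.02 (adjusted p = 0.931).

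Downstream, in the phosphoinositide 3-kinase, AKT and MTOR list, 1 of 39 tested genes fell and none rose, with a median log2 fold change of -0.02. INPP4B, a lipid phosphatase, had 5.83 and 7.43 CPM in the NSD2 shRNA libraries, against 11.7 and 17.7 CPM in the control libraries (log2 fold change -1.14, adjusted p = 0.0116). AKT1, the kinase at the centre of this arm, had a log2 fold change of 0.09 and did not pass (adjusted p = 0.614). Of the 22 tested FOXO genes and targets, GADD45A, a growth arrest and DNA damage protein, rose to 42.1 ± 7.95 CPM with the NSD2 shRNA, against 26.2 ± 0.639 CPM with the control shRNA (log2 fold change 0.68, adjusted p = 0.0154), and lost its call without NSD2 shRNA library 2. FOXO1 and FOXO3, the factors known to drive IRS2 and INSR when insulin signalling is low, had log2 fold changes of -0.41 and -0.18 and did not pass (adjusted p = 0.221 and 0.418).

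Of the 7 tested genes of the IGF2 messenger binding and growth hormone list, 1 fell and 1 rose. IGF2BP1, an RNA-binding protein that binds IGF2 messenger RNA, had 35.6 and 32.2 CPM in the NSD2 shRNA libraries, against 49.9 and 59.7 CPM in the control libraries (log2 fold change -0.69, adjusted p = 0.00814). STAT5A, which carries the growth hormone signal to IGF1 in liver, had 3.76 and 4.24 CPM in the NSD2 shRNA libraries, against 2.49 and 1.91 CPM in the control libraries (log2 fold change 0.86, adjusted p = 0.0376), and lost its call without NSD2 shRNA library 2 or control library 2. Of 5 tested relatives that carry an IGFBP domain, CRIM1 fell to 5.96 ± 1.29 CPM with the NSD2 shRNA, against 12.5 ± 3.96 CPM with the control shRNA (log2 fold change -1.06, adjusted p = 0.0242), and none rose.

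**Figure D4:**
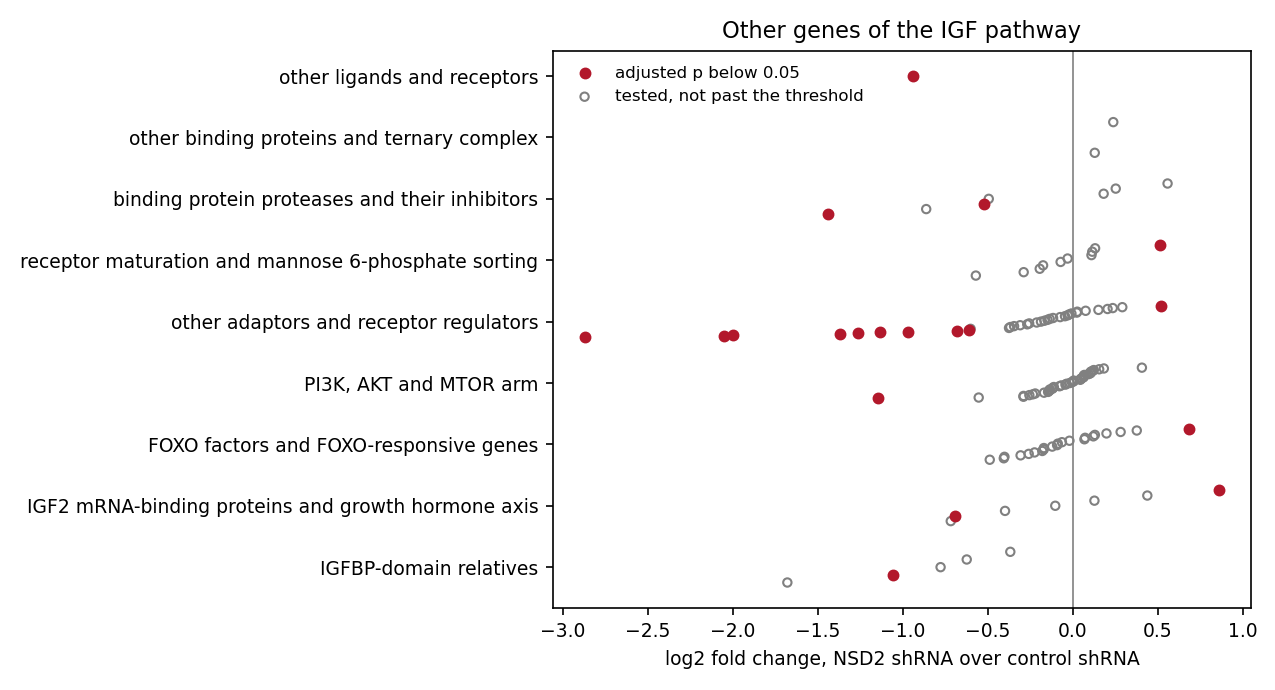
Log2 fold change, NSD2 shRNA over control shRNA, of the 128 tested pathway genes that are not members, 1 point per gene and 1 row per list, with filled points for the 4 higher and 15 lower genes past the threshold. The adaptor list reaches lowest, to -2.87 for SHC2, while the phosphoinositide 3-kinase list lies mostly near 0.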

How the data were processed

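RNA was sequenced in 4 libraries of KMS11 cells, 2 a group. Per the submitters' processing notes, the tools were Trim Galore 0.3.7, STAR 2.5.3, Picard, featureCounts of Subread 1.4.6 and DESeq2, on GRCh37. Per the file headers, the deposited counts are whole fragments per Ensembl gene, counted without strand from alignments named as free of duplicates. A further table deposited by the authors holds their DESeq2 results (header M2 vs LUC, while headers of count columns read shScr): a base mean (a signal), log2 fold changes with standard errors, adjusted p-values and exonic lengths. Its 4 count columns were not used, and 1 blank line a count file was left out.

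The test was edgeR 4.0.16 (quasi-likelihood F test, TMM scaling, filterByExpr, group as the only term) in R 4.3.3, adjusted by Benjamini and Hochberg over 17172 genes, with a threshold of 0.05. Depth was 46728940 to 55059566 fragments, and model intervals are at 95%. The fit was also run on simulated counts with the same spread for all genes, unlike real counts. There 11 of 178 calls were false. Of genes changed 1.5-fold 60% were recovered, and of genes changed 2-fold 95.6%. These rates may not hold for the real counts. Levels are TMM-scaled CPM. Alternatives used other scalings, filters, DESeq2 1.42.0, limma 3.58.1 (voom), terms for GC content (GENCODE 29) and length, a replicate block, and libraries left out.

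The members, the pathway lists and the alternatives were chosen with earlier results of these data known. The rule named all members, up to 3 higher and 3 lower genes per list by smallest adjusted p, NSD2, and the 5 genes most like IGFBP4. Sequences come from RefSeq on GRCh38.p14 and gene coordinates from the deposited table.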

Additional observations from a re-analysis of the deposited data

How the results depend on the processing

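Against 1018 genes called by edgeR, 2148 were called with no filter on low counts, 3319 with a replicate block, 5054 with GC content and length terms and a replicate block, and 822 to 2024 with 1 library left out. The median log2 fold change of the members was -0.21, against 0.0197 with GC content and length terms, 0.0211 with these and a replicate block, and -0.30 to -0.12 with 1 library left out. With GC content and length terms, with or without the block, the median over all genes rose by 0.07. Lower pathway genes numbered 15, against 23 with no filter, 31 with the replicate block, 30 with GC content and length terms and the block, and 14 to 21 with 1 library left out. Higher ones numbered 4, against 7 with no filter, 10 with the replicate block, 7 with GC content and length terms, 30 with these and the block, and 0 to 7 with 1 library left out. Calls over all genes moved as well. With no filter 658 of 31645 genes tested were higher and 1490 lower, and with the replicate block 1327 and 1992 of 17172. With GC content and length terms 660 of 16533 were higher and 620 lower, and with these and the block 3222 and 1832. The changes in the pathway counts are therefore not read as a result about the pathway. The labels share replicate numbers but do not say that a number marks a pair. Deviations of same-numbered libraries correlated at 0.236, and with 2 pairs this establishes no pairing. With the replicate block 7 members were past the threshold, beside 3319 of 17172 genes tested. Without it 2 were, beside 1018 of 17172. The members were selected on this contrast, so nothing is read from these member counts. IGFBP2 has no value under the stricter filter, so the members have no median there. Counts of 33 to 62 fragments a library limit IGFBP2 and IGFBP7, and shared exons limit IGFBP7 too.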
